A study of Homo sapiens with 9 samples.

Results

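The core genes of epithelial to mesenchymal transition were examined in PANC-1, a human cell line from a carcinoma of the pancreatic duct. The set was named by symbol as 10 genes: VIM, ZEB1, ZEB2, SNAI2, CDH1, CDH2, CD44, S100A4, ESRP1 and ESRP2. Of the 16750 genes in the table of levels, 5 were members of the set, namely VIM, S100A4, CD44, ZEB1 and ESRP2, and all 5 passed the filter on low values. ZEB2, SNAI2, CDH1, CDH2 and ESRP1 were not analysed here, so neither of the cadherins whose exchange gives the transition its usual definition was measured.

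The cells had been transduced with a lentiviral plasmid carrying SLC22A10 (SLC22A10_OE), SLC22A15 (SLC22A15_OE) or no insert (vector), and the design set each transporter line against vector. All 3 groups had been selected with puromycin at 1 µg/ml and were kept in 0.5 µg/ml, and cells were used by passage 10. Each group had 3 libraries, named here by group and by the numbers 1 to 3 of the column names. The sample titles end in A1, A2 and B1 in every group, and the column names do not show which library has which title. The libraries of a group may thus not be equally independent. The labels call the groups stable clones and do not say whether the libraries of a group came from separate cultures or whether a line descends from 1 cell. P-values therefore reflect only how far the libraries of a group vary, possibly for technical reasons, and a difference between lines cannot be told apart from a difference between clones.

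In epithelial to mesenchymal transition, cells lose the junctions that hold an epithelium together and gain a motile shape. Transcription factors of the ZEB and SNAIL families bind E-box sequences in the promoters of epithelial genes and repress them, while the splicing regulators ESRP1 and ESRP2 keep epithelial forms of transcripts such as CD44 and are themselves repressed by ZEB1. Vimentin replaces keratins as the main intermediate filament, and S100A4, a calcium-binding protein that binds non-muscle myosin, is used as a marker of cells that have made the change. PANC-1 is commonly described as a poorly differentiated, partly mesenchymal line.

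The promoters of the members with the largest changes and of ZEB1 are shown because ZEB1 acts through the E-box CACCTG. They are RefSeq windows on GRCh38.p14, from 250 bases before to 50 bases after an annotated start, given 5′ to 3′ on the strand of the gene, with matches to the motifs searched in capitals. The S100A4 window lies at chr1:153545757-153546056 on the minus strand, the CD44 window at chr11:35138921-35139220 on the plus strand and the ZEB1 window at chr10:31318966-31319265 on the plus strand. That ZEB1 window is the one with the most matches of 7 annotated windows.
S100A4: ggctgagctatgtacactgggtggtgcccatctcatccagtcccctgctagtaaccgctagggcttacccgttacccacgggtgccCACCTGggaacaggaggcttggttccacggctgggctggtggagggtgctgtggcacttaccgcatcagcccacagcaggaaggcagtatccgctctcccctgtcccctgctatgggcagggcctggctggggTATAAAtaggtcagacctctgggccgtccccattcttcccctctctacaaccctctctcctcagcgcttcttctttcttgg
CD44: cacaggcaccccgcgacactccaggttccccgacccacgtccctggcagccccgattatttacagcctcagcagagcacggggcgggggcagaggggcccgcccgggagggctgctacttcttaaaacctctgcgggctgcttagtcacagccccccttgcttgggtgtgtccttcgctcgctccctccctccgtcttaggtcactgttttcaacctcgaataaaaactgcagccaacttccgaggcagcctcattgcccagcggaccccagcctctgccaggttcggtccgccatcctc
ZEB1: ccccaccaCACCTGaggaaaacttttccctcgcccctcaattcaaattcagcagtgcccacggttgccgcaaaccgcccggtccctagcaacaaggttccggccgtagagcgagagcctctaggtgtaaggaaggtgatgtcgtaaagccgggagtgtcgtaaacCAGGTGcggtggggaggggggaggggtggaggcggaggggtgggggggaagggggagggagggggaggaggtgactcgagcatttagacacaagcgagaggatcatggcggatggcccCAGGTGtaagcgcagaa
The motifs were the E-box CACCTG, the AP-1 site TGACTCA and the TEAD site GGAATG, each on both strands, and the TATA box TATAAA on the strand of the gene, and none of these letters overlap in the windows shown. The S100A4 window held CACCTG from base 87 and TATAAA from base 220. The ZEB1 window held the E-box at bases 9, 166 and 284, the last pair of them as the reverse complement CAGGTG. No match was found in the CD44 window or in that of VIM. Of 35116 RefSeq promoter windows, 20.6% held CACCTG, 7.33% TATAAA, 4.95% TGACTCA and 14.03% GGAATG. A match describes letters and not binding, which was not measured. The tables gave 4 of the 5 measured members a window. ESRP2 had no entry.

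The libraries held 28.4 to 42.9 M reads (1 M is 1e+06), and a gene at 1 CPM (1 read per M reads) held 27.8 to 43.4 reads. SLC22A10 reached 85.4 ± 5.53 CPM in SLC22A10_OE, against 0 reads in all 3 SLC22A15_OE libraries and 1 read in a single vector library (n = 3 each). SLC22A15 averaged 75.9 ± 2.48 CPM in SLC22A15_OE, 3.84 ± 0.357 CPM in SLC22A10_OE and 6.11 ± 0.571 CPM in vector (SD, n = 3 each). SLC22A15 was thus lower in SLC22A10_OE than in vector, by a log2 fold change of -0.56 (limma adjusted p = 9.28e-05). In 1 library of each group, SLC22A10_OE 3, SLC22A15_OE 1 and vector 1, the mitochondrial ribosomal RNAs took less than 0.5 of the median share over libraries. VIM, S100A4, CD44 and ZEB1 were lowest in exactly that library of every group, as were 20.7% of all tested genes. With 1 such library in each group, a term for these libraries in the fit left the members' log2 fold changes unchanged. With that term, 5 members passed the test in SLC22A10_OE against vector, as without it. Over all 14554 tested genes, the number called there rose from 9775 to 11170. In SLC22A15_OE against vector and against SLC22A10_OE, 4 passed, also as without it. The genes called in these comparisons rose from 2966 to 5608 and from 9158 to 10723, so a call covers more genes with the term. Why these libraries differed was not tested. Of the ductal and epithelial markers, 5 of 7 were measured, with a summed level of 532 to 593 CPM in SLC22A10_OE, 287 to 321 CPM in SLC22A15_OE and 436 to 475 CPM in vector, and KRT7 averaged under 0.5 CPM in every group. The 2 of 6 fibroblast or stellate markers measured, ACTA2 and COL1A1, summed to 5.63 to 7.05 CPM in SLC22A10_OE, 1.12 to 1.40 CPM in SLC22A15_OE and 1.74 to 2.04 CPM in vector. CDH5, the 1 of 3 endothelial markers measured, reached 6.24 to 7.65 CPM in SLC22A10_OE, 2.52 to 2.86 CPM in SLC22A15_OE and 0.901 to 1.45 CPM in vector. CD14, the 1 of 3 leukocyte markers measured, reached 7.52 to 9.14 CPM in SLC22A10_OE, 0.806 to 1.02 CPM in SLC22A15_OE and 0.563 to 0.689 CPM in vector. The other defining markers of those cell types, and all 3 acinar markers, were not analysed here. The part of these markers in the members' results was not tested.

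The 5 measured members did not move as a block. S100A4 was higher in both transporter lines than in vector and CD44 was lower in both, while VIM was slightly higher in SLC22A10_OE and lower in SLC22A15_OE. ZEB1 was modestly lower in both lines, and ESRP2, at a few CPM, was lower in SLC22A10_OE and did not pass the test in SLC22A15_OE. Against vector, 5 of 5 members passed an adjusted p of 0.05 in SLC22A10_OE, where 67.2% of all 14554 tested genes did. In SLC22A15_OE 4 of 5 passed against vector, where 20.4% of all genes did, and between SLC22A15_OE and SLC22A10_OE 4 of 5 passed, where 62.9% did. Of the members, 2 rose and 3 fell in SLC22A10_OE against vector, where 34.7% of all genes rose and 32.5% fell. In SLC22A15_OE 1 rose and 3 fell against vector, where 10.8% of all genes rose and 9.58% fell, and against SLC22A10_OE 2 were higher and 2 lower, where 30.8% and 32.1% of all genes were. The libraries of the groups did not overlap for 4 members in each comparison, as for 69.2% of all genes in SLC22A10_OE against vector, 34.7% in SLC22A15_OE against vector and 67.4% in SLC22A15_OE against SLC22A10_OE. All p-values here come from limma on log2(CPM + 1) with Benjamini-Hochberg adjustment over all tested genes, and log2 fold changes are on that scale. Both comparisons with vector share the same 3 vector libraries.

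**Figure D1:**
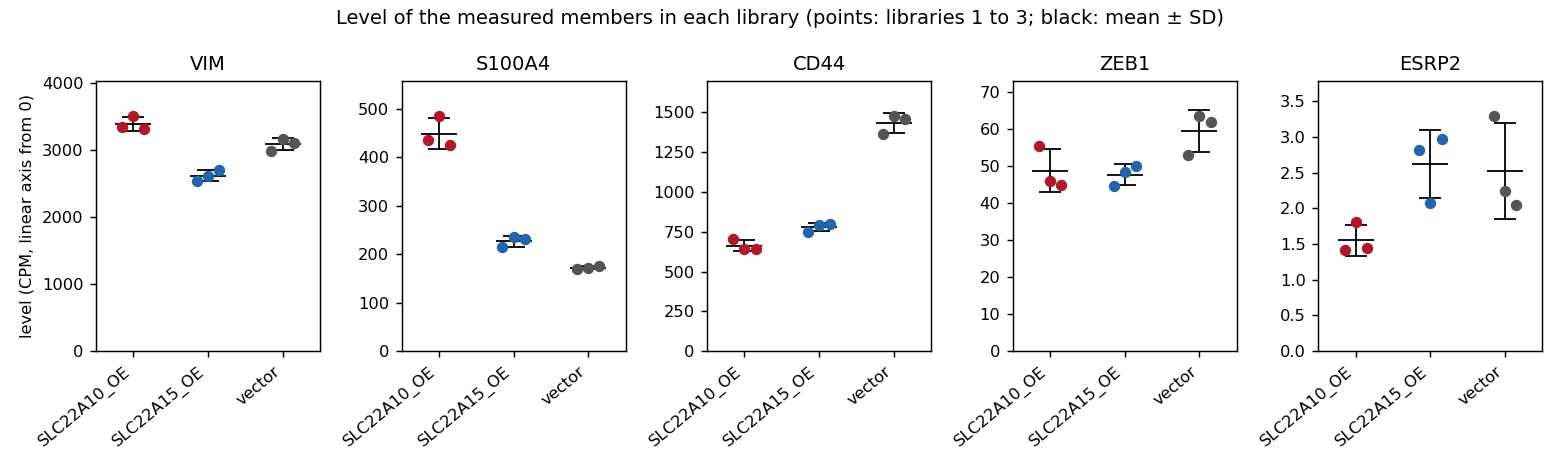
Level of each measured member in CPM on linear axes from 0, with a point per library in SLC22A10_OE, SLC22A15_OE and vector and the mean ± SD in black (n = 3 each). CD44 sits at 639 to 797 CPM in both transporter lines and at 1363 to 1475 CPM in vector, and S100A4 has separate ranges in all 3 groups.

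S100A4 had the largest rise of the set. It had 435, 485 and 425 CPM in SLC22A10_OE libraries 1 to 3, 214, 235 and 231 CPM in SLC22A15_OE, and 169, 171 and 176 CPM in vector. The 3 groups did not overlap, with SLC22A10_OE highest and vector lowest. The mean of 448 ± 31.8 CPM in SLC22A10_OE was 2.60 times the 172 ± 3.71 CPM of vector (SD, n = 3 each), a log2 fold change of 1.37 (SE 0.06, adjusted p = 4.39e-10). That change was larger than those of 96.3% of tested genes in the same comparison. In SLC22A15_OE the mean was 227 ± 10.997 CPM, a log2 fold change of 0.39 against vector (SE 0.06, adjusted p = 0.000192). Between the lines, SLC22A15_OE was lower than SLC22A10_OE by a log2 fold change of -0.98 (SE 0.06, adjusted p = 1.78e-08). The gene lies at chr1:153543613-153550136 on the minus strand (GRCh38, GENCODE release 29), and S100A3 lies within that span on the same strand. S100A3 averaged 6.66 ± 0.685 CPM in SLC22A10_OE, 4.75 ± 0.264 CPM in SLC22A15_OE and 4.87 ± 0.689 CPM in vector.

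S100A4 belongs to a cluster of calcium-binding S100 genes on chromosome 1, and its neighbours moved in both directions. Of 11 measured genes in a list of the family without S100A4, 7 rose and 3 fell in SLC22A10_OE against vector, and 4 rose and 3 fell in SLC22A15_OE against vector. Over all tested genes, 34.7% rose and 32.5% fell in SLC22A10_OE, and 10.8% rose and 9.58% fell in SLC22A15_OE. The list reaches beyond the cluster. It holds S100Z, which lies on another chromosome, and S100PBP, a binding partner of S100P and not a family member. S100PBP passed the test in neither line. The median log2 fold change of the list was 0.39 in SLC22A10_OE and 0.08 in SLC22A15_OE, against 0.00455 and 0.00560 over all tested genes. With each library centred on its median, the list stood at 0.26 and 0.05. S100A16 averaged 49.2 ± 1.08 CPM in SLC22A10_OE, 33.8 ± 0.0740 CPM in SLC22A15_OE and 23.5 ± 2.56 CPM in vector, with log2 fold changes against vector of 1.04 and 0.51. S100A5 averaged 8.17 ± 0.914 CPM in SLC22A10_OE, 4.50 ± 0.352 CPM in SLC22A15_OE and 2.47 ± 0.121 CPM in vector. Both genes had the order of groups seen for S100A4. S100Z, which lies on chromosome 5, averaged 7.58 ± 0.357 CPM in SLC22A10_OE, 2.09 ± 0.328 CPM in SLC22A15_OE and 0.226 ± 0.121 CPM in vector. S100A11 and S100A10, the partners of annexins, ran the other way. S100A11 averaged 131 ± 6.85 CPM in SLC22A10_OE, 178 ± 4.26 CPM in SLC22A15_OE and 231 ± 4.59 CPM in vector, with log2 fold changes against vector of -0.82 and -0.37. S100A10 averaged 115 ± 3.81 CPM in SLC22A10_OE, 179 ± 13.8 CPM in SLC22A15_OE and 216 ± 15.1 CPM in vector.

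**Figure D2:**
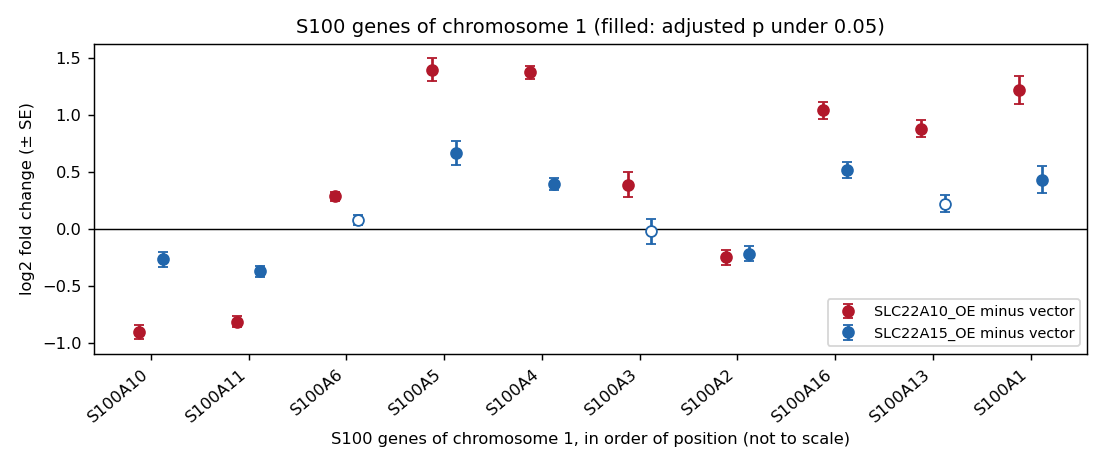
Log2 fold change against vector (± SE) of the measured S100 genes of chromosome 1, in order of position along the chromosome and not to scale, for SLC22A10_OE and SLC22A15_OE. Filled points passed an adjusted p of 0.05. S100A10 and S100A11, at one end, fall in both lines, while S100A4, S100A5 and S100A16 rise in both.

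CD44, the cell surface receptor for hyaluronan, fell in both transporter lines. It had 702, 644 and 639 CPM in SLC22A10_OE libraries 1 to 3, 748, 794 and 797 CPM in SLC22A15_OE, and 1363, 1475 and 1461 CPM in vector. Every transporter library lay below every vector library, and the lines did not overlap each other. The mean fell to 662 ± 34.7 CPM in SLC22A10_OE, against 1433 ± 60.9 CPM in vector (SD, n = 3 each), which is 0.462 of the vector level and a log2 fold change of -1.11 (SE 0.05, adjusted p = 1.04e-09). In SLC22A15_OE it fell to 779.5 ± 27.7 CPM, which is 0.544 of the vector level and a log2 fold change of -0.88 (SE 0.05, adjusted p = 6.82e-08). These changes were larger than those of 93.2% of tested genes in SLC22A10_OE and of 98.6% in SLC22A15_OE. CD44 was higher in SLC22A15_OE than in SLC22A10_OE by a log2 fold change of 0.24 (SE 0.05, adjusted p = 0.00113). By mean CPM it ranked 131 in SLC22A10_OE, 93 in SLC22A15_OE and 37 in vector among 14554 genes. The gene spans chr11:35138870-35232402 on the plus strand. CD44 is alternatively spliced, and the gene-level values sum over its forms, so the standard and variant forms were not told apart.

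The ligands, partners and sheddases of CD44 did not all follow it. Of 16 tested genes, 5 rose and 7 fell in SLC22A10_OE against vector (3 and 8 with each library centred on its median), and 1 rose and 5 fell in SLC22A15_OE. For all tested genes the shares were 34.7% higher and 32.5% lower in SLC22A10_OE, and 10.8% and 9.58% in SLC22A15_OE. EZR, the ezrin that ties CD44 to actin, fell in both, to 283 ± 4.58 CPM in SLC22A10_OE and 361 ± 13.3 CPM in SLC22A15_OE, against 441 ± 7.89 CPM in vector. MSN, the related moesin, averaged 448 ± 8.79 CPM in SLC22A10_OE, 399 ± 4.36 CPM in SLC22A15_OE and 506 ± 5.58 CPM in vector, and fell in both. NF2, the merlin tumour suppressor that competes for the same tail, averaged 250.1 ± 9.84 CPM in SLC22A10_OE, 311 ± 10.3 CPM in SLC22A15_OE and 345 ± 12.7 CPM in vector. MET, the hepatocyte growth factor receptor for which variant CD44 serves as co-receptor, rose. It averaged 83.7 ± 4.53 CPM in SLC22A10_OE, 50.8 ± 1.95 CPM in SLC22A15_OE and 34.8 ± 1.30 CPM in vector, with log2 fold changes against vector of 1.24 and 0.53 (adjusted p = 1.58e-09 and 2.57e-05). SRGN, the proteoglycan serglycin, averaged 159 ± 11.8 CPM in SLC22A10_OE, 161 ± 3.85 CPM in SLC22A15_OE and 203 ± 3.36 CPM in vector, and fell in both. CEMIP2, a hyaluronan-processing protein, fell in SLC22A10_OE to 20.2 ± 0.741 CPM, against 30.2 ± 1.23 CPM in vector, and had 32.1 ± 0.547 CPM in SLC22A15_OE. ADAM17, a protease that cuts surface proteins, averaged 111 ± 5.63 CPM in SLC22A10_OE, 75.9 ± 3.02 CPM in SLC22A15_OE and 87.7 ± 2.76 CPM in vector, and moved in opposite directions against vector, with log2 fold changes of 0.33 and -0.21 (adjusted p = 0.000124 and 0.0157).

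VIM, the intermediate filament vimentin, ranked among the highest genes by CPM in all 3 groups and changed little in SLC22A10_OE. It had 3346, 3506 and 3319 CPM in SLC22A10_OE libraries 1 to 3, 2539, 2616 and 2709 CPM in SLC22A15_OE, and 2988, 3174 and 3110.2 CPM in vector. The 3 groups did not overlap, with SLC22A10_OE highest and SLC22A15_OE lowest. The mean was 3390.3 ± 101 CPM in SLC22A10_OE and 3091 ± 94.3 CPM in vector (SD, n = 3 each), a log2 fold change of 0.13 (SE 0.04, adjusted p = 0.0169), smaller than those of most genes, since 22.2% changed less. With each library centred on its median over tested genes, which moves all changes in that comparison by -0.12, VIM stood at 0.01 (adjusted p = 0.816). The call was also lost without SLC22A10_OE library 2 (adjusted p = 0.0610) and without vector library 1 (adjusted p = 0.0519). In SLC22A15_OE, VIM fell to 2621 ± 85.3 CPM, a log2 fold change of -0.24 against vector (SE 0.04, adjusted p = 0.00173). That change was larger than those of 76.7% of tested genes in the same comparison. SLC22A15_OE was lower than SLC22A10_OE by a log2 fold change of -0.37 (SE 0.04, adjusted p = 1.06e-05). By mean CPM, VIM ranked 13 in SLC22A10_OE, 15 in SLC22A15_OE and 12 in vector. The gene lies at chr10:17228259-17237593 on the plus strand and overlaps VIM-AS1 on the other strand, which averaged 2.04 ± 0.246 CPM in SLC22A10_OE, 2.45 ± 0.496 CPM in SLC22A15_OE and 3.45 ± 1.03 CPM in vector. Whether counting used strand is not stated in the sources used here, so reads of the pair cannot be told apart.

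Of 10 other intermediate filament and mesenchymal genes tested, 5 rose and 2 fell in SLC22A10_OE against vector (2 and 3 with centring), and 3 rose and 4 fell in SLC22A15_OE. By comparison, 34.7% of all tested genes rose and 32.5% fell in SLC22A10_OE, and 10.8% rose and 9.58% fell in SLC22A15_OE. NT5E, the surface enzyme CD73 of mesenchymal stem cells, fell to 43.6 ± 2.27 CPM in SLC22A10_OE and 122 ± 3.66 CPM in SLC22A15_OE, against 284 ± 14.2 CPM in vector, with log2 fold changes of -2.68 and -1.21 (adjusted p = 9.66e-13 and 9.11e-09). NES, the filament nestin, averaged 6.28 ± 0.457 CPM in SLC22A10_OE, 0.740 ± 0.157 CPM in SLC22A15_OE and 1.92 ± 0.308 CPM in vector, and moved in opposite directions, with log2 fold changes of 1.32 and -0.75. TAGLN, the actin-binding transgelin, rose in both, to 14.4 ± 1.12 CPM in SLC22A10_OE and 23.6 ± 1.42 CPM in SLC22A15_OE, against 10.7 ± 0.855 CPM in vector. AXL, a receptor tyrosine kinase, fell in SLC22A15_OE to 52.7 ± 1.24 CPM, against 103 ± 6.51 CPM in vector. In SLC22A10_OE it had 100.5 ± 2.92 CPM (adjusted p = 0.595 against vector). FN1, fibronectin, averaged 3.42 ± 0.328 CPM in SLC22A10_OE, 4.74 ± 0.407 CPM in SLC22A15_OE and 4.74 ± 0.296 CPM in vector.

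ZEB1, the E-box repressor of epithelial genes, was modestly lower in both lines. It had 55.5, 45.9 and 44.9 CPM in SLC22A10_OE libraries 1 to 3, 44.5, 48.4 and 49.98 CPM in SLC22A15_OE, and 53.0, 63.4 and 61.8 CPM in vector. SLC22A10_OE library 1 lay above vector library 1, so those groups overlapped, while every SLC22A15_OE library lay below every vector library. The mean was 48.8 ± 5.87 CPM in SLC22A10_OE and 59.4 ± 5.58 CPM in vector (SD, n = 3 each), a log2 fold change of -0.28 (SE 0.09, adjusted p = 0.0126). The call was lost without SLC22A10_OE library 2 or 3 or vector library 2 or 3, at adjusted p = 0.0589, 0.0548, 0.0509 and 0.0509. In SLC22A15_OE the mean was 47.6 ± 2.83 CPM, a log2 fold change of -0.31 against vector (SE 0.09, adjusted p = 0.0242). ZEB1 changed more than 84.5% of tested genes in SLC22A15_OE against vector, and more than 44.5% in SLC22A10_OE against vector. The call in SLC22A15_OE was lost without SLC22A15_OE library 1 or 2 or vector library 2 or 3, at adjusted p = 0.0752, 0.0560, 0.0903 and 0.0973. Between SLC22A15_OE and SLC22A10_OE the difference was -0.03 on the log2 scale (95% interval -0.22 to 0.16, adjusted p = 0.788). The gene spans chr10:31318495-31529814 on the plus strand, and ZEB1-AS1 overlaps its start on the other strand. ZEB1-AS1 averaged 11.4 ± 0.938 CPM in SLC22A10_OE, 6.05 ± 0.245 CPM in SLC22A15_OE and 6.70 ± 0.189 CPM in vector, with log2 fold changes against vector of 0.69 (adjusted p = 1.38e-05) and -0.13 (adjusted p = 0.348). Its rise in SLC22A10_OE ran against the direction of ZEB1, and reads of the pair cannot be told apart without strand.

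**Figure D3:**
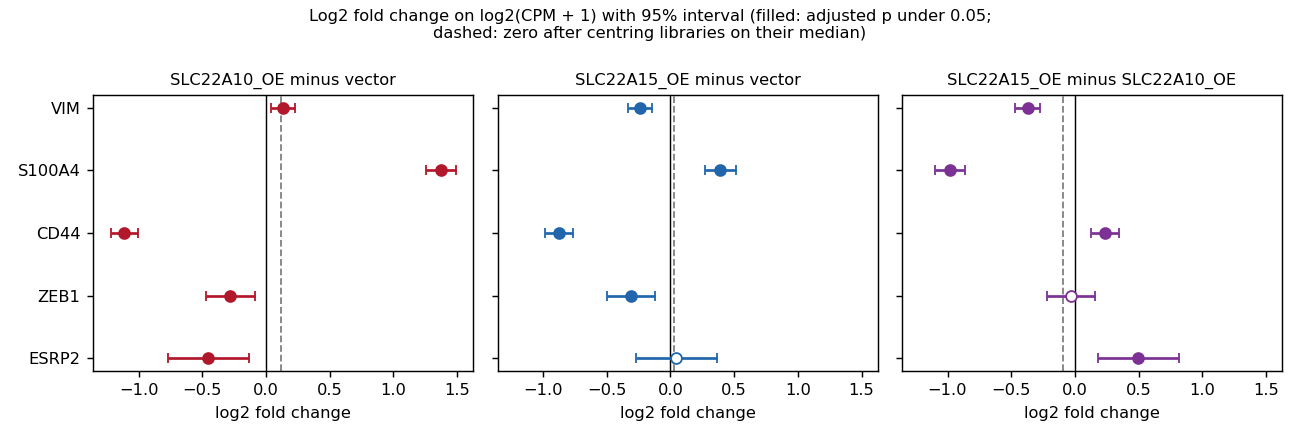
Log2 fold change of the measured members on the log2(CPM + 1) scale with its 95% interval, for SLC22A10_OE minus vector, SLC22A15_OE minus vector and SLC22A15_OE minus SLC22A10_OE. Filled points passed an adjusted p of 0.05, and the dashed line marks zero after centring libraries on their median, on which VIM nearly falls in SLC22A10_OE.

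Of 9 other transcription factors of the transition that were tested, 3 rose and 3 fell in SLC22A10_OE against vector (3 and 4 with centring), and 0 rose and 3 fell in SLC22A15_OE. Among all tested genes, 34.7% rose and 32.5% fell in SLC22A10_OE, and 10.8% rose and 9.58% fell in SLC22A15_OE. FOSL1, an AP-1 subunit, fell to 14.1 ± 1.05 CPM in SLC22A10_OE and 45.0 ± 1.54 CPM in SLC22A15_OE, against 71.3 ± 5.40 CPM in vector, with log2 fold changes of -2.26 and -0.65 (adjusted p = 4.90e-11 and 2.80e-05). SOX4 rose to 33.7 ± 0.686 CPM in SLC22A10_OE, against 17.6 ± 1.28 CPM in vector, and had 20.5 ± 2.10 CPM in SLC22A15_OE. SNAI3, a SNAIL family member, rose to 7.27 ± 0.869 CPM in SLC22A10_OE, against 3.79 ± 0.490 CPM in vector. SNAI1 had 4.72 ± 0.584 CPM in SLC22A10_OE, 4.68 ± 0.574 CPM in SLC22A15_OE and 5.67 ± 0.668 CPM in vector and passed in neither line; it was named after its values were seen. SOX9, a ductal progenitor factor, averaged 156 ± 10.7 CPM in SLC22A10_OE, 85.7 ± 8.68 CPM in SLC22A15_OE and 127 ± 5.24 CPM in vector, with log2 fold changes of 0.30 and -0.56 against vector. FOXC1 fell in SLC22A10_OE to 9.45 ± 1.06 CPM, against 15.6 ± 0.805 CPM in vector.

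Of 8 tested epithelial factors listed as opposing ZEB1 and SNAI2, 4 rose and 2 fell in SLC22A10_OE against vector (3 and 3 with centring), and 3 rose and 1 fell in SLC22A15_OE (3 and 2 with centring). The shares over all tested genes were 34.7% higher and 32.5% lower in SLC22A10_OE, and 10.8% and 9.58% in SLC22A15_OE. EHF, an ETS factor of epithelia, rose to 468 ± 15.5 CPM in SLC22A10_OE and 307 ± 17.0 CPM in SLC22A15_OE, against 5.37 ± 0.225 CPM in vector, with log2 fold changes of 6.20 and 5.59 (adjusted p = 1.52e-16 and 5.75e-16). ELF3, a related ETS factor, rose to 36.0 ± 2.35 CPM in SLC22A10_OE and 6.92 ± 0.535 CPM in SLC22A15_OE, against 3.59 ± 0.454 CPM in vector. TP63, the p53 relative of basal epithelia, rose to 514 ± 24.5 CPM in SLC22A10_OE and 329.9 ± 14.3 CPM in SLC22A15_OE, against 273 ± 15.9 CPM in vector. KLF4 fell to 10.6 ± 1.22 CPM in SLC22A10_OE and 12.4 ± 0.666 CPM in SLC22A15_OE, against 20.6 ± 0.990 CPM in vector. GRHL1, a grainyhead factor, averaged 3.13 ± 0.226 CPM in SLC22A10_OE, 2.40 ± 0.173 CPM in SLC22A15_OE and 3.19 ± 0.257 CPM in vector, and was lower in SLC22A15_OE than in SLC22A10_OE (adjusted p = 0.0281), a call lost with centring. How these factors act on ZEB1 or SNAI2 in these cells was not measured, and gene-level values do not tell the forms of TP63 apart.

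Of 17 tested corepressors and enzymes that work with ZEB and SNAIL factors, 6 rose and 5 fell in SLC22A10_OE (4 and 8 with centring), and 2 rose and 1 fell in SLC22A15_OE against vector. DNMT1, the maintenance DNA methyltransferase, fell to 322 ± 3.22 CPM in SLC22A10_OE, against 464 ± 13.4 CPM in vector, and had 461 ± 9.98 CPM in SLC22A15_OE. SIN3A rose in both lines, to 148 ± 2.05 CPM in SLC22A10_OE and 119 ± 0.433 CPM in SLC22A15_OE, against 105 ± 2.54 CPM in vector. EZH2, the H3K27 methyltransferase, rose in SLC22A15_OE to 111 ± 3.53 CPM, against 78.8 ± 3.29 CPM in vector. Of 23 tested genes of TGF-beta signalling, a main inducer of the transition, 7 rose and 12 fell in SLC22A10_OE (7 and 13 with centring), and 1 rose and 10 fell in SLC22A15_OE (1 and 11 with centring). Beside both lists, 34.7% of all tested genes rose and 32.5% fell in SLC22A10_OE, and 10.8% rose and 9.58% fell in SLC22A15_OE. SMAD7, the inhibitory SMAD, fell to 1.23 ± 0.184 CPM in SLC22A10_OE and 2.15 ± 0.436 CPM in SLC22A15_OE, against 7.04 ± 0.704 CPM in vector. SMURF2, a ubiquitin ligase of the receptors, fell to 161 ± 3.12 CPM in SLC22A10_OE and 223 ± 4.95 CPM in SLC22A15_OE, against 315 ± 7.95 CPM in vector. LTBP2, a latent TGF-beta binding protein family member, fell to 87.3 ± 4.56 CPM in SLC22A10_OE and 84.0 ± 2.73 CPM in SLC22A15_OE, against 186 ± 11.5 CPM in vector. LTBP4 rose in SLC22A10_OE to 30.7 ± 4.35 CPM, against 6.14 ± 0.918 CPM in vector.

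ESRP2, the epithelial splicing regulator, had a low level in every group. It had 1.42, 1.80 and 1.44 CPM in SLC22A10_OE libraries 1 to 3, 2.83, 2.08 and 2.97 CPM in SLC22A15_OE, and 3.29, 2.25 and 2.04 CPM in vector. These were 55, 63 and 40 reads in SLC22A10_OE, 89, 80 and 129 reads in SLC22A15_OE and 107, 80 and 77 reads in vector. All 3 SLC22A10_OE libraries lay below all others, and SLC22A15_OE overlapped vector. The mean fell to 1.55 ± 0.215 CPM in SLC22A10_OE, against 2.53 ± 0.670 CPM in vector (SD, n = 3 each), a log2 fold change of -0.45 on the log2(CPM + 1) scale (SE 0.15, adjusted p = 0.0150), which understates the change of a low gene. edgeR on the recovered reads gave -0.69. The call was lost without vector library 1 (-0.30, adjusted p = 0.0710). SLC22A15_OE averaged 2.63 ± 0.478 CPM, a difference of 0.05 from vector (95% interval -0.27 to 0.36, adjusted p = 0.866), and was higher than SLC22A10_OE by 0.50 (SE 0.15, adjusted p = 0.00940). The gene lies at chr16:68229111-68238102 on the minus strand, and its end overlaps NFATC3 on the other strand, which averaged 87.5 CPM over the 9 libraries. Reads of NFATC3 in that overlap cannot be told from those of ESRP2 without strand.

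Other splicing factors of epithelial and mesenchymal exons moved in both directions. Of 17 tested, 6 rose and 10 fell in SLC22A10_OE against vector (4 and 10 with centring), and 3 rose and 2 fell in SLC22A15_OE (3 and 3 with centring). Across all tested genes, 34.7% rose and 32.5% fell in SLC22A10_OE, and 10.8% rose and 9.58% fell in SLC22A15_OE. RBM47, which favours epithelial exons in several carcinoma lines, rose to 13.7 ± 1.11 CPM in SLC22A10_OE and 5.65 ± 0.483 CPM in SLC22A15_OE, against 1.31 ± 0.487 CPM in vector, with log2 fold changes of 2.69 and 1.55 (adjusted p = 4.19e-09 and 4.64e-06). NOVA2, a factor of neurons and endothelium, rose to 80.5 ± 4.41 CPM in SLC22A10_OE and 11.6 ± 0.827 CPM in SLC22A15_OE, against 7.63 ± 0.665 CPM in vector. RBM24 rose to 3.74 ± 0.258 CPM in SLC22A10_OE and 2.55 ± 0.240 CPM in SLC22A15_OE, against 0.834 ± 0.165 CPM in vector. SRSF1, an SR protein, fell to 441 ± 17.7 CPM in SLC22A10_OE, against 751 ± 36.1 CPM in vector, and had 685 ± 23.0 CPM in SLC22A15_OE (adjusted p = 0.0771). HNRNPM, which competes with the ESRPs at CD44 exons, fell to 301 ± 12.5 CPM in SLC22A10_OE, against 422 ± 12.3 CPM in vector, and had 457 ± 4.15 CPM in SLC22A15_OE. MBNL1 averaged 232 ± 9.92 CPM in SLC22A10_OE, 316 ± 3.98 CPM in SLC22A15_OE and 329.9 ± 7.24 CPM in vector. PTBP3 fell to 189.8 ± 6.39 CPM in SLC22A10_OE and 205 ± 10.2 CPM in SLC22A15_OE, against 233 ± 14.5 CPM in vector.

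**Figure D4:**
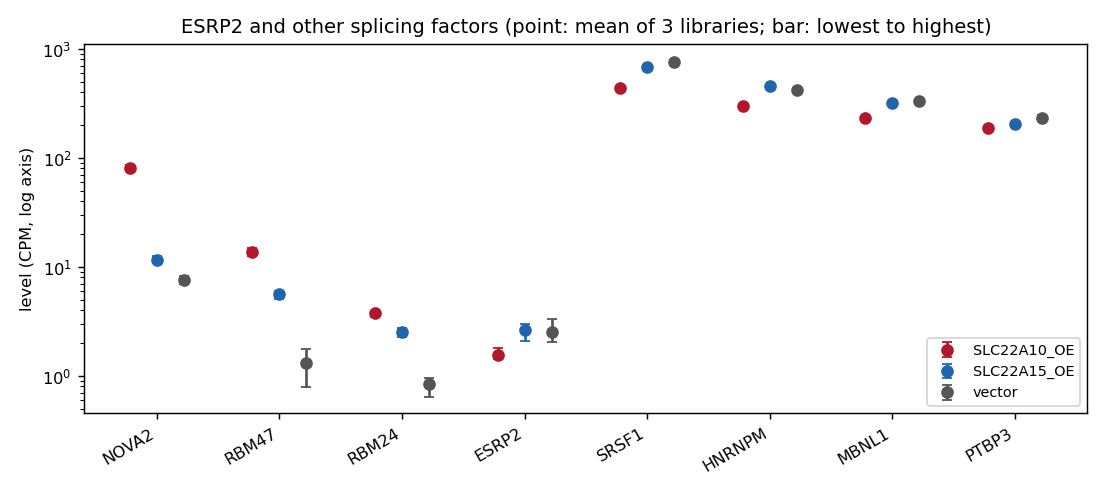
Level of ESRP2 and of other splicing factors in CPM on a log axis, in SLC22A10_OE, SLC22A15_OE and vector. Points are means of 3 libraries and bars run from the lowest to the highest library. NOVA2, RBM47 and RBM24 are highest in SLC22A10_OE and lowest in vector, and ESRP2 is at 1.42 to 3.29 CPM throughout.

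Of 10 tested genes in a list for cadherin and catenin adhesion, 6 rose and 3 fell in SLC22A10_OE against vector (3 and 4 with centring). In SLC22A15_OE 3 rose and 1 fell (3 and 2 with centring). The list also holds nectins, AFDN and CTNNAL1, and is thus wider than the catenins that anchor cadherins. JUP, plakoglobin, rose to 40.9 ± 4.48 CPM in SLC22A10_OE and 8.72 ± 1.27 CPM in SLC22A15_OE, against 5.25 ± 0.701 CPM in vector, with log2 fold changes of 2.74 and 0.63 (adjusted p = 6.73e-10 and 0.00166). NECTIN2, an adherens junction protein, averaged 118 ± 10.1 CPM in SLC22A10_OE, 82.4 ± 3.46 CPM in SLC22A15_OE and 66.6 ± 6.03 CPM in vector. CTNNA1, alpha-catenin, averaged 489 ± 3.94 CPM in SLC22A10_OE, 410.4 ± 3.21 CPM in SLC22A15_OE and 429 ± 3.86 CPM in vector, and was lower in SLC22A15_OE than in SLC22A10_OE. CTNNAL1 fell to 162 ± 3.92 CPM in SLC22A10_OE, against 255 ± 21.0 CPM in vector. Of 5 other tested cadherins, 4 rose and 1 fell in SLC22A10_OE, and 3 rose in SLC22A15_OE (2 with centring). Next to these lists, 34.7% of all tested genes rose and 32.5% fell in SLC22A10_OE, and 10.8% rose and 9.58% fell in SLC22A15_OE. CDH5, the endothelial cadherin, rose to 6.86 ± 0.720 CPM in SLC22A10_OE and 2.68 ± 0.169 CPM in SLC22A15_OE, against 1.11 ± 0.293 CPM in vector. CDH24 rose to 14.7 ± 1.57 CPM in SLC22A10_OE and 11.6 ± 0.793 CPM in SLC22A15_OE, against 8.39 ± 0.847 CPM in vector.

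Of 19 tested epithelial surface and polarity genes, 11 rose and 4 fell in SLC22A10_OE against vector (9 and 5 with centring), and 2 rose and 3 fell in SLC22A15_OE. All tested genes had shares of 34.7% higher and 32.5% lower in SLC22A10_OE, and of 10.8% and 9.58% in SLC22A15_OE. DSP, the desmosomal desmoplakin, rose to 179.9 ± 6.40 CPM in SLC22A10_OE, against 109.7 ± 2.78 CPM in vector, and had 119.8 ± 3.27 CPM in SLC22A15_OE (adjusted p = 0.0757). TJP3, the junction scaffold ZO-3, rose to 12.8 ± 1.82 CPM in SLC22A10_OE, against 1.71 ± 0.224 CPM in vector, and had 1.70 ± 0.378 CPM in SLC22A15_OE. SPINT2, a protease inhibitor of epithelia, rose to 7.46 ± 0.669 CPM in SLC22A10_OE and 1.65 ± 0.0649 CPM in SLC22A15_OE, against 0.640 ± 0.288 CPM in vector. DSG2, a desmosomal cadherin, averaged 121 ± 4.17 CPM in SLC22A10_OE, 82.6 ± 2.58 CPM in SLC22A15_OE and 99.8 ± 4.39 CPM in vector, with log2 fold changes of 0.28 and -0.27 against vector. The median log2 fold change of this list was 0.35 in SLC22A10_OE and -0.07 in SLC22A15_OE, against 0.00455 and 0.00560 over all tested genes. With each library centred on its median, the list stood at 0.23 and -0.09. The 8 host transcripts of the miR-200 and miR-205 microRNAs, which silence ZEB1, were not analysed here.

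**Figure D5:**
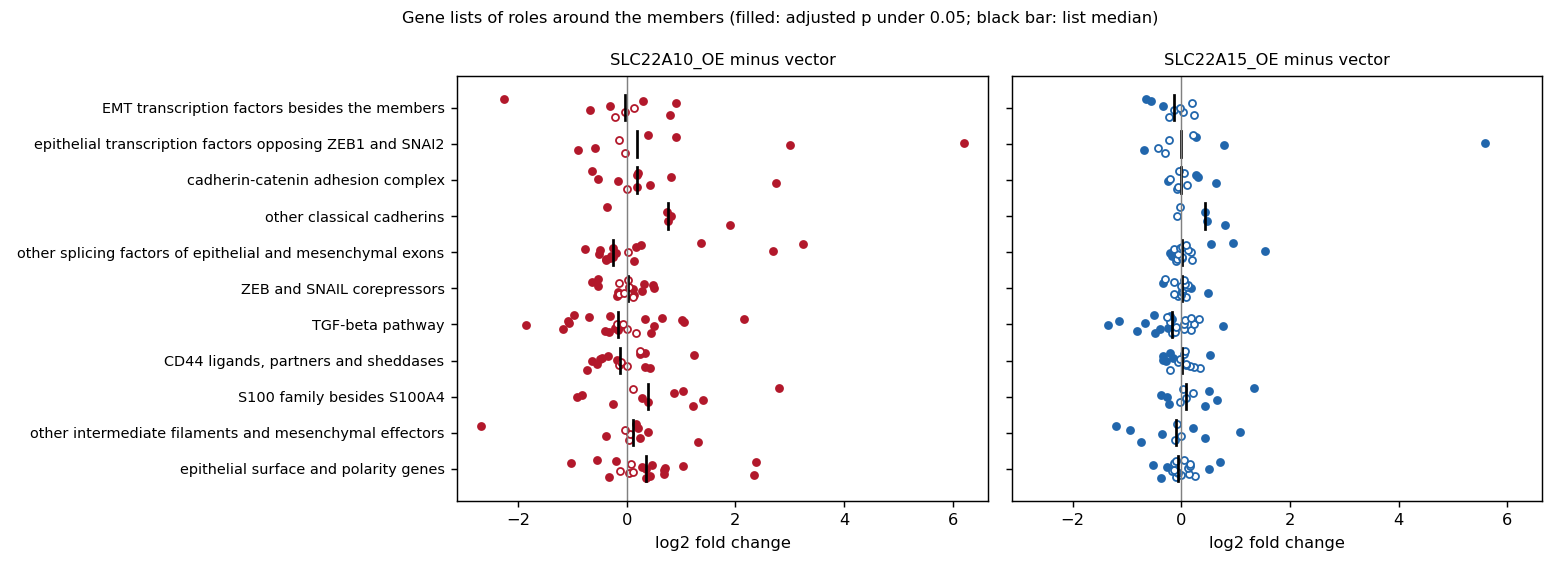
Log2 fold change against vector of every tested gene in the lists of roles around the members, for SLC22A10_OE and SLC22A15_OE, with filled points past an adjusted p of 0.05 and a black bar at the median of each list. The median of epithelial surface and polarity genes is 0.35 in SLC22A10_OE and -0.07 in SLC22A15_OE, without centring of libraries.

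Ratios of members within a library do not depend on how libraries were scaled. The log2 ratio of CD44 to S100A4 averaged 0.56 ± 0.141 in SLC22A10_OE, 1.78 ± 0.0231 in SLC22A15_OE and 3.06 ± 0.0478 in vector (SD, n = 3 each), with no overlap between groups. The difference from vector was -2.49 in SLC22A10_OE and -1.27 in SLC22A15_OE, and SLC22A15_OE exceeded SLC22A10_OE by 1.22. The log2 ratio of VIM to CD44 was above vector by 1.25 in SLC22A10_OE and by 0.64 in SLC22A15_OE. That of VIM to S100A4 was below vector by -1.24 and -0.63. Each of these differences had a two-sided exact permutation p of 0.1, the smallest that 3 against 3 libraries allow, and 0.13 after Benjamini-Hochberg adjustment over the 30 differences computed. The pairs given were picked from 10 after the data were seen. Some other pairs overlapped vector, such as ZEB1 to ESRP2 in SLC22A10_OE (exact p = 0.4) and S100A4 to ESRP2 in SLC22A15_OE (exact p = 0.5).

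Per kilobase of summed exons, where genes can be compared with each other, VIM was highest in every group, at 657 ± 19.6 CPM per kb in SLC22A10_OE, 508 ± 16.5 in SLC22A15_OE and 599 ± 18.3 in vector. S100A4 followed at 438 ± 31.0 CPM per kb in SLC22A10_OE, 221 ± 10.7 in SLC22A15_OE and 168 ± 3.62 in vector. CD44 stood at 66.2 ± 3.47 CPM per kb in SLC22A10_OE, 77.9 ± 2.77 in SLC22A15_OE and 143 ± 6.09 in vector. These values depend on the length used. All 15 levels were higher per kilobase of the longest transcript, as for VIM in vector at 1159 ± 35.4 CPM per kb. In vector the order of S100A4 and CD44 also depended on the length, since per kilobase of the longest transcript S100A4 had 228 ± 4.92 and CD44 250.01 ± 10.6 CPM per kb. ZEB1 lay lower, at 5.64 ± 0.679 CPM per kb in SLC22A10_OE, 5.50 ± 0.327 in SLC22A15_OE and 6.87 ± 0.645 in vector. ESRP2 was lowest, at 0.279 ± 0.0387 CPM per kb in SLC22A10_OE, 0.472 ± 0.0860 in SLC22A15_OE and 0.454 ± 0.120 in vector.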

How the data were processed

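RNA was sequenced from 9 libraries of PANC-1 cells, 3 per group, with a strand-specific kit after removal of ribosomal RNA, per the labels' protocols. The authors deposited CPM per gene and library. Their deposited tables per comparison hold log2 fold changes and mean log2 CPM, an F score, p-values with false discovery rates, and −log10 values of these, per the file headers; only gene symbols were taken from them. edgeR and the builds hg38 and mm9 are listed in the submitters' processing notes with no role. For the aligner, the counter, its use of strand and the annotation, the details were not given in the sources used here.

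Whole reads were recovered from the CPM values (100% within 0.1 read). limma (3.58.1, R 4.3.3) was fitted with a mean trend on log2(CPM + 1) to all 9 libraries without covariate (6 residual degrees of freedom), on the 14554 of 16750 genes with at least 1 CPM in at least 3 libraries. P-values are two-sided, adjusted by Benjamini-Hochberg over tested genes, with a threshold of 0.05. The fit was run on simulated counts with known fold changes in a small share of genes. The simulation held no library that differed from its group, so calls in data with such libraries were not tested by it. Intervals are 95%. Ratios within libraries had exact permutation tests. edgeR (4.0.16) and DESeq2 (1.42.0) on recovered reads were alternatives. Spans and exon lengths came from GENCODE release 29 (GRCh38) and promoter windows from RefSeq.

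The members and gene lists were chosen with earlier results of these data known. Beside the members, up to 4 genes per list and comparison are named, by smallest adjusted p among those past the threshold, and the text gives some of them; some named by this rule are not reported here. Same-numbered SLC22A15_OE and vector libraries deviated together (r = 0.57, 0.31 and 0.19 across genes), which counts as pairing where every pair exceeds 0.1. The agreement was not specific to the number, since SLC22A15_OE 3 with vector 2 gave 0.35, SLC22A15_OE 2 with vector 3 gave 0.16 and SLC22A10_OE 3 with vector 1 gave 0.52. The numbers come from the column names and no label says what they share. SLC22A10_OE and vector gave -0.41, 0.14 and -0.26, and were not treated as paired. With the number as a block in SLC22A15_OE and vector alone, 5922 genes passed in place of 2966, and 4 of 5 members passed in both.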

Additional observations from a re-analysis of the deposited data

How the results depend on the processing

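Of the members' log2 fold changes, 242 values under the alternatives kept their direction and their side of the threshold, 12 lost the call and 6 turned sign. The calls lost are given with VIM, ZEB1 and ESRP2 above, and those of CD44 and S100A4 held under every alternative run. The sign turned where the difference was near 0. ZEB1 in SLC22A15_OE minus SLC22A10_OE stood at 0.065 with each library centred on its median, and from -0.085 to 0.066 when a library was left out. ESRP2 in SLC22A15_OE minus vector ran from -0.052 to 0.20 when a library was left out. The members called in SLC22A10_OE against vector were 3 to 5 of 5 when a library was left out, with 3 without SLC22A10_OE library 2 or vector library 1. Of all 14554 tested genes, 9024 were called without SLC22A10_OE library 2 and 9815 without vector library 1.

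Over all genes, 9775, 2966 and 9158 were called in SLC22A10_OE against vector, SLC22A15_OE against vector and SLC22A15_OE against SLC22A10_OE. With a replicate block by library number in the fit of 9 libraries these were 9688, 2781 and 9111, and the block changed no member's call. The count in SLC22A15_OE was 5922 with the replicate block in SLC22A15_OE and vector libraries alone (added after seeing the data), and 5608 with a term for the libraries low in mitochondrial ribosomal RNA. The cause was not tested. Centring moved the share of higher calls to 38.3%, 44.5% and 61.0%, against 51.6%, 53.0% and 49.0% on the deposited scale. The ratios planned for CDH1, CDH2, ESRP1 and ZEB2 were not run, and the 10 pairs of measured members replaced them after the data were seen. Depth limits ESRP2, which had 40 to 129 reads a library. At the mean reads of each group, the counting SD of a library was 10.0% to 13.8%.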
